A study of Mus musculus with 27 samples.

Results

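The question addressed here was whether loss of Raptor changes gene expression differently in CD8+ and in CD4+ T cells after stimulation. For each gene the effect of Raptor loss, Raptor KO minus wild type (WT), was taken in stimulated CD8+ cells and in stimulated CD4+ cells, and the CD4+ effect was subtracted from the CD8+ effect. The result is a difference of differences on the log2 scale, called the subset difference of the Raptor effect below. A value above 0 means that Raptor loss moved the gene further up, or less far down, in CD8+ than in CD4+ cells. The 12 libraries it compares were chosen by their labels from the 27 of the series and form 4 groups of 3. All 27 libraries entered the fit, in which the 9 groups of the series share the estimate of the spread. Of the 26802 genes in the count table, 10493 had enough counts to be tested.

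All 4 groups came from C57BL/6 mice. The KO groups carried the Cd4-cre transgene B6-Tg(Cd4-cre)1Cwi with the floxed allele Rptortm1.1Dmsa, and the WT groups are labelled as wild type, with no Cre transgene named. Cre under the Cd4 promoter acts in the thymus at the stage when precursors carry both CD4 and CD8, so the allele is deleted in both subsets. T cells were enriched by negative magnetic selection from pooled lymph node and spleen, held for 48 h on plates coated with anti-CD3 and anti-CD28 at 10 µg/ml, and then sorted as live cells. Resting cells of the same genotypes and subsets, cultured for the same 48 h in IL-7 (5 ng/ml), served as the comparison without antigen receptor signals. Whether the 3 libraries of a group came from separate animals is not stated in the labels, so a p-value here refers to the spread among the libraries sequenced.

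Raptor, encoded by Rptor, recruits substrates to the kinase complex mTORC1, which couples growth factor and nutrient signals to translation, lipid and nucleotide synthesis and glycolysis. In T cells mTORC1 is switched on by the antigen receptor and CD28 and drives the growth that precedes division. CD4+ helper and CD8+ cytotoxic cells share this pathway but differ in lineage factors, among them Zbtb7b (ThPOK) in CD4+ cells and Runx3 in CD8+ cells.

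The 12 stimulated libraries held 11449525 to 14964503 counts each, and 82.3% to 87.6% of them fell on Rn45s, the ribosomal RNA precursor, which was left out. This left 1522199 to 2280104 counts per library. CPM are counts scaled to a common library size, here the scaled total of the tested genes. By that scaling 1 count was worth 0.275 to 0.837 CPM. Protein-coding genes held 38.9% to 63.6% of the counts without Rn45s in WT and 31.8% to 47.8% in KO libraries. The part of this share in the results was not tested. Cd4 stood at 171 to 181 and 187 to 229.5 CPM in WT and KO CD4+ libraries and at 5.02 CPM or less in CD8+ libraries, whereas Cd8a stood at 110.3 to 128 and 91.7 to 112 CPM in WT and KO CD8+ libraries and at 3.24 CPM or less in CD4+ libraries. Rptor gave 23.9 to 30.5 and 17 to 25.1 CPM in WT and KO CD4+ cells and 18.4 to 28.9 and 17.2 to 22.6 CPM in WT and KO CD8+ cells, with no called difference. Counts over the whole gene also include the exons that Cre leaves in place, so Rptor is a weak check of the genotype labels.

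Both stimulated KO libraries numbered 1 had high Xist (1474 and 1088 CPM) and no Ddx3y counts, the pattern of female cells. The other 10 stimulated libraries had Xist at 5.84 CPM or less, so each KO group held RNA of more than 1 animal. Ddx3y, a Y chromosome gene, stood at 28.5 to 37.7 CPM in WT CD4+ and 23.55 to 29.4 CPM in WT CD8+ libraries, the pattern of male cells. Sex was thus not balanced between WT and KO groups, and its part in the results was not tested. The resting KO libraries numbered 1 also showed the female pattern. Xist stood at 1111 CPM in their CD4+ and 1061 CPM in their CD8+ cells, with no Ddx3y counts. Whether same-numbered libraries share a donor across subset and culture is not stated in the labels. Correlations between same-numbered stimulated libraries are given below, as a hint only. Results are also given without the 2 stimulated KO libraries numbered 1. Summed CPM of 16 myeloid marker genes found in the table ran from 30.5 to 38 in WT and 61.4 to 75.1 in KO CD4+ libraries, and from 45.3 to 61 in WT and 62.7 to 77.8 in KO CD8+ libraries. Ctss led that sum, while Lyz2 stood at 0.689 CPM or less in all 12. For the 11 markers of natural killer and gamma-delta T cells found in the table, the sums were 9.8 to 16.5 and 7.08 to 23.4 CPM in WT and KO CD4+ cells, and 19.7 to 26.9 and 39.6 to 62.7 CPM in WT and KO CD8+ cells. Eomes, also a CD8+ T cell gene, led the CD8+ sums, and Ncr1 was at 0 in all 12. The 12 B cell markers summed to 26.7 to 37.2 and 36.5 to 66.9 CPM in WT and KO CD4+ cells, and to 48.2 to 61.7 and 52.9 to 60.1 CPM in WT and KO CD8+ cells, with Ighm at the top. The part of such cells in the results was not tested. In bulk RNA of this kind, fewer cells of a type and less RNA per cell cannot be told apart.

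Raptor loss changed 1230 genes in stimulated CD8+ cells (11.7% of genes tested) and 1823 in stimulated CD4+ cells (17.4%), at an adjusted p under 0.05 by edgeR's quasi-likelihood test with Benjamini-Hochberg adjustment, the test behind every adjusted p below. In CD8+ cells 661 genes (6.3%) rose and 569 (5.42%) fell, and in CD4+ cells 925 (8.82%) rose and 898 (8.56%) fell. Scaling to totals that include Rn45s, with no further scaling factor, moved the median of all genes to -0.486 in CD8+ and -0.46 in CD4+ cells. It gave 55 higher and 404 lower in CD8+ and 67 higher and 617 lower in CD4+ cells. Of the 647 genes called in both subsets, 643 moved in the same direction and 4 in opposite directions. These 647 were 52.6% of the CD8+ calls and 35.5% of the CD4+ calls. Across all genes the 2 effects, which share no library, had a Pearson r of 0.595 and a Spearman rho of 0.573, where genes are not independent replicates.

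The subset difference itself was called for far fewer genes, 35 of the 10493 (0.334%), all protein coding, with 18 higher (0.172%) and 17 lower (0.162%) in CD8+ cells. An unadjusted p under 0.05 was reached by 981 genes (9.35%). Its size was under 1 on the log2 scale for 90.3% of genes, with a median size of 0.304 and a median standard error (SE) of 0.378. Thus 583 genes were called in CD8+ and not in CD4+ cells, and the subset difference was called for 10 of these. Of the 1176 called in CD4+ and not in CD8+ cells, it was called for 19. All 35 were called in at least 1 of the subsets, 6 of them in both.

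The 35 genes formed a few patterns. Among the 18 with a higher effect in CD8+ cells, 14 had an effect above 0 in CD8+ and below 0 in CD4+ cells, 3 were above 0 in both, and 1 (Cd6) was below 0 in both. The effect in CD8+ cells passed the test alone for 9, the effect in CD4+ cells alone for 8, and both in opposite directions for Chst11. Among the 17 with a lower effect in CD8+ cells, 10 were below 0 in CD8+ and above 0 in CD4+ cells and 7 were above 0 in both. Of these 17, 11 were called in CD4+ cells only, Zbtb7b in CD8+ cells only, and 5 in both, of which Trim30a, Epsti1 and Ypel3 moved in opposite directions.

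**Figure D1:**
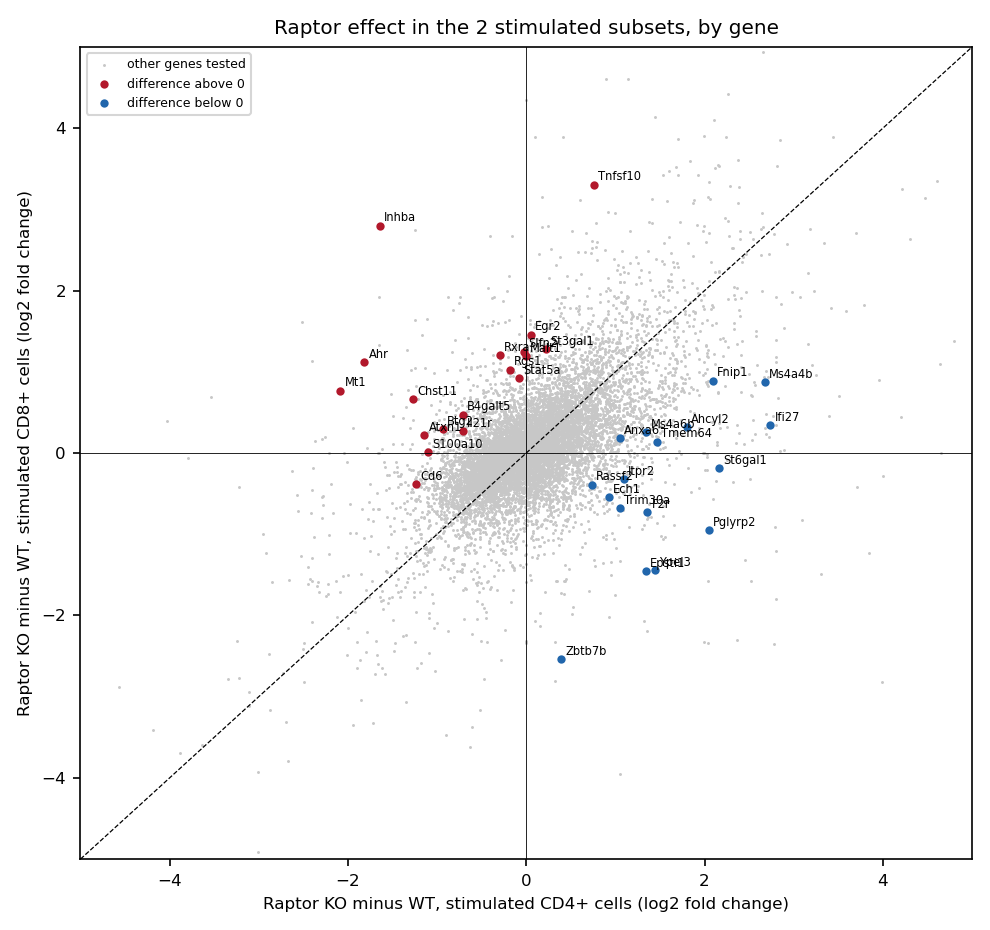
Log2 fold change of Raptor KO over WT in stimulated CD4+ cells (x axis) and stimulated CD8+ cells (y axis) for the genes tested that lie within 5 log2 units of 0 on both axes. Grey points are genes without a called subset difference; the 18 red and 17 blue points are genes whose effect was higher or lower in CD8+ cells, and they lie away from the dashed line of equal effects.

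The number of calls depended on single libraries. It was 22 without WT CD8+ library 1, 18 without WT CD8+ library 2, 22 without KO CD4+ library 1, 18 without KO CD4+ library 2 and 17 without KO CD8+ library 2, and over all 12 such fits it ran from 17 to 45. Without both KO libraries numbered 1 it was 16, of which 15 were among the 35. When the 4 groups were fitted alone it was 18, all among the 35. With library sizes that included Rn45s and no further scaling factor it was 2, of which 1 (Inhba) was among the 35. Called in every one of the 12 fits were 10 genes: Tnfsf10, Malt1, Slfn2, Rgs1, Btg2, Ahcyl2, Itpr2, Pglyrp2, Trim30a and Epsti1. Rgs1 alone among these lost its call without both KO libraries numbered 1, and Btg2, Malt1 and Slfn2 lost theirs when the 4 groups were fitted alone. Also kept without both KO libraries numbered 1 were Atxn1, Rxra, Zbtb7b, Egr2, St3gal1 and Ms4a4b. For the other 25 genes the number of fits that kept the call is given with the gene.

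Ligands, receptors and signalling proteins with a higher effect in CD8+ cells are given first. Tnfsf10 (whole-gene span chr3:27317028-27342427 on GRCm38, the build of all coordinates here) encodes TRAIL, a ligand that triggers death receptors. Its level was 5.12, 5.89 and 1.98 CPM in the WT CD8+ libraries and 43.5, 31.4 and 45.5 CPM in the KO CD8+ libraries. In CD4+ cells it was 4.54, 5.79 and 5.78 CPM in WT and 10.8, 6.89 and 9.92 CPM in KO libraries. The 3 KO CD8+ libraries lay far above the other 9, and the KO CD4+ libraries lay above the WT CD4+ libraries without overlap. The Raptor effect was 3.31 (SE 0.29) in CD8+ cells, adjusted p = 2.18e-11, and 0.76 (SE 0.34) in CD4+ cells, adjusted p = 0.115, all on the log2 scale. The subset difference was 2.55 (95% interval 1.62 to 3.47), adjusted p = 0.00486.

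Malt1, the protease and scaffold that links the antigen receptor to NF-kB, gave 87.9, 87.8 and 75.2 CPM in WT and 188, 159 and 227 CPM in KO CD8+ libraries. In CD4+ cells it gave 150.5, 162 and 91.1 CPM in WT and 125, 118 and 157 CPM in KO libraries. The CD8+ groups did not overlap and the CD4+ groups did. Its subset difference was 1.20 (SE 0.22), adjusted p = 0.00722, with a CD8+ effect of 1.20 (adjusted p = 6.65e-07) and an adjusted p of 0.996 in CD4+ cells. Rgs1 (chr1:144242296-144249242), a brake on signalling from chemokine receptors, gave 100.1, 88.3 and 82.3 CPM in WT and 172, 198 and 180.3 CPM in KO CD8+ cells, against 61.6, 66.8 and 69.3 CPM and 51.8, 63.4 and 59.98 CPM in WT and KO CD4+ cells. The KO CD8+ libraries of Rgs1 were the highest 3 of the 12. Its subset difference was 1.21 (SE 0.24), adjusted p = 0.00842, with an effect of 1.03 in CD8+ (adjusted p = 1.39e-05) and -0.18 in CD4+ cells (adjusted p = 0.506).

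Cytokine receptor signalling was represented by Stat5a and Il21r. Stat5a, which carries signals from the IL-2 receptor to the nucleus, stood at 133, 135 and 160.1 CPM in WT and 269.5, 315 and 230.1 CPM in KO CD8+ libraries, and at 188, 162 and 174 CPM in WT and 166, 148 and 178 CPM in KO CD4+ libraries. Only the KO CD8+ libraries lay apart. The subset difference of Stat5a was 1.01 (SE 0.21), adjusted p = 0.0139, with a CD8+ effect of 0.92 (adjusted p = 1.6e-05), and 9 of 12 fits with 1 library left out kept the call. Il21r, the receptor subunit for IL-21, fell in CD4+ cells from 108, 126 and 96.9 CPM to 70.6, 70.3 and 61.4 CPM and stood at 97.4, 94.8 and 86.8 CPM and 104, 129 and 103 CPM in WT and KO CD8+ cells. Its effect was -0.71 in CD4+ (adjusted p = 0.00134) and 0.27 in CD8+ cells (adjusted p = 0.276), a difference of 0.98 (adjusted p = 0.0317) that 4 of 12 fits kept.

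Cd6, a surface receptor that tunes antigen receptor signals, was the 1 gene of the 18 with an effect below 0 in both subsets. It fell in CD4+ cells from 216, 201 and 202 CPM in WT to 82, 96.5 and 85 CPM in KO libraries, an effect of -1.23 (adjusted p = 6.85e-08). In CD8+ cells it stood at 133, 127 and 156 CPM in WT and 112, 106 and 104 CPM in KO libraries, an effect of -0.38 (adjusted p = 0.0849). WT and KO did not overlap in either subset, and the gap was wider in CD4+ cells. The subset difference of 0.86 was near the threshold (adjusted p = 0.0482), was kept in 1 of 12 fits with 1 library left out, and was lost under median-ratio scaling.

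Inhba, the gene of the activin A subunit, a ligand of the TGF-beta family, had the largest value of the 35 and wide replicate spread. It gave 7.79, 15.2 and 2.48 CPM in WT and 1.14, 1.38 and 4.72 CPM in KO CD4+ libraries, and 1.18, 2.68 and 1.13 CPM in WT and 11.7, 17.8 and 4.71 CPM in KO CD8+ libraries. The CD8+ groups did not overlap and the CD4+ groups did. The difference of 4.44 (95% interval 2.45 to 6.43, adjusted p = 0.0372) was kept in 3 of 12 fits, with values of 3.62 to 5.45.

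Regulators of transcription and of cell growth formed the next set. Egr2, an early response factor downstream of the antigen receptor, gave 12.6, 10.2 and 12.4 CPM in WT CD8+ cells and 24.3, 34 and 37.6 CPM in KO CD8+ cells. In CD4+ cells it gave 57.7, 48.6 and 46.2 CPM in WT and 41.6, 46.2 and 67.5 CPM in KO libraries. WT CD8+ libraries were the lowest 3 of the 12, and the KO CD8+ libraries lay between them and all 6 CD4+ libraries. The effect was 1.46 (SE 0.23) in CD8+ (adjusted p = 1.16e-05) and 0.05 (SE 0.19) in CD4+ cells (adjusted p = 0.881), a difference of 1.40 (adjusted p = 0.0167) that 6 of 12 fits kept, with values of 1.26 to 1.66.

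Slfn2 (chr11:83065112-83070678), a Schlafen family gene needed for T cell quiescence, was likewise low in WT CD8+ cells alone. It stood at 31.5, 31.6 and 47.5 CPM in WT CD8+ libraries, against 70.3, 88.3 and 106 CPM in KO CD8+ libraries. The CD4+ libraries gave 87.6, 76.2 and 104 CPM in WT and 82, 66.9 and 113 CPM in KO cells. CD8+ minus CD4+ was thus -1.26 in WT (adjusted p = 2.72e-06) and 0.01 in KO cells (SE 0.17). The subset difference of the Raptor effect was 1.28 (SE 0.25), adjusted p = 0.00722. Rxra, a nuclear receptor that pairs with many others, gave 15, 12.8 and 16.1 CPM and 27.6, 27.2 and 45.1 CPM in WT and KO CD8+ cells and 61, 49.5 and 47.9 CPM and 38.7, 42 and 46.3 CPM in WT and KO CD4+ cells. Neither pair of groups of Rxra overlapped. The difference for Rxra was 1.499 (adjusted p = 0.00913) and lost its call in 1 of 12 fits, the one without KO CD8+ library 3.

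Btg2 (chr1:134075170-134079120), an antiproliferative gene that p53 induces, moved in CD4+ cells. Its level was 47.4, 44.1 and 32.5 CPM in WT and 25.1, 19.99 and 18.9 CPM in KO CD4+ libraries, which did not overlap, and 30.7, 25.7 and 32.2 CPM in WT and 41, 29.3 and 39.6 CPM in KO CD8+ libraries, which did. The effect was -0.93 in CD4+ (adjusted p = 0.000144) and 0.29 in CD8+ cells (adjusted p = 0.266), a subset difference of 1.22 (SE 0.24, adjusted p = 0.00722). The 250 bases before its start are shown because they hold the cAMP response half-site TGACGT, whose letters were also in the windows of Egr2 and Mt1. Of the 35 genes, 25 had a promoter window in the RefSeq table (build GRCm38.p6), 11 of them with a higher effect in CD8+ cells. The half-site, searched on both strands, was in 3 of these 11, in 2 of the 14 with a lower effect (Ahcyl2 and Pglyrp2), and in 7.29% of all 27025 genes with a window. E-box, AP-1 and STAT sites were searched too. They were in 1, 0 and 0 of the 11 and in 1, 3 and 1 of the 14, beside 6.86%, 7.82% and 8.13% of all genes with a window. Of the cAMP response element only the half-site was searched. The window of Btg2 is chr1:134079156-134079405 (GRCm38.p6, minus strand). The capitals mark 2 overlapping matches, 1 on each strand, which together form the palindrome TGACGTCA:
Btg2: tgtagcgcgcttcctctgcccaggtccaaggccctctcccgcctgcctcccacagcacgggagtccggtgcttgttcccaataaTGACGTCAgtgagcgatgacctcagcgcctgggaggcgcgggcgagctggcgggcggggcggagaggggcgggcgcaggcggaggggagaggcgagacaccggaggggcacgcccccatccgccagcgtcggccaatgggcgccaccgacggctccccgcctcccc

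Ahr, the receptor for aryl hydrocarbons, and Atxn1, a transcriptional corepressor, also fell in CD4+ cells. Ahr gave 20.8, 26.7 and 6.88 CPM in WT and 6.84, 4.14 and 3.78 CPM in KO CD4+ cells, and 12.2, 4.28 and 3.96 CPM in WT and 18.4, 14.1 and 12.9 CPM in KO CD8+ cells. Neither pair overlapped, although WT CD4+ library 3 and WT CD8+ library 1 lay close to the nearest KO library. The difference for Ahr was 2.94 (95% interval 1.69 to 4.19, adjusted p = 0.0176), kept in 7 of 12 fits with values of 2.47 to 3.66. Atxn1 fell from 62.9, 78.9 and 69.1 CPM to 32.5, 24.8 and 37.3 CPM in CD4+ cells, while WT and KO CD8+ libraries overlapped at 49.8 to 68.7 and 49.4 to 85.5 CPM. Its difference was 1.36 (SE 0.26, adjusted p = 0.00722), and the call was lost in 1 of 12 fits, the one without KO CD8+ library 3.

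Enzymes that build glycans were called in both directions. Chst11, a sulfotransferase of chondroitin chains, rose in CD8+ cells from 20.9, 21.4 and 23.8 CPM to 31.8, 46.5 and 27.4 CPM (effect 0.67, adjusted p = 0.033) and fell in CD4+ cells from 8.43, 11.6 and 6.61 CPM to 3.42, 3.45 and 3.78 CPM (effect -1.27, adjusted p = 0.00926). Neither pair overlapped, and the difference was 1.94 (adjusted p = 0.0167, 8 of 12 fits). St3gal1, which adds sialic acid in alpha-2,3 linkage, rose in CD8+ cells from 23.3, 18.2 and 24.3 CPM to 46.9, 47.6 and 65.1 CPM and overlapped in CD4+ cells at 33.9 to 40.2 and 36.4 to 50.7 CPM in WT and KO. The difference for St3gal1 was 1.05 (adjusted p = 0.0372, 5 of 12 fits).

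St6gal1, the enzyme of alpha-2,6 linkage, had the opposite sign. It rose in CD4+ cells from 12.3, 6.24 and 6.61 CPM to 39.9, 39.3 and 27.9 CPM, an effect of 2.16 (adjusted p = 6.84e-05), and stood at 15, 15 and 11.3 CPM and 8.37, 8.36 and 16.9 CPM in WT and KO CD8+ cells, where the groups overlapped. The difference was -2.35 (adjusted p = 0.0268), and 4 of 12 fits kept it, with values of -2.85 to -2.15. B4galt5, a galactosyltransferase that makes lactosylceramide, fell in CD4+ cells from 88.9, 84.2 and 63.3 CPM to 48.4, 57.2 and 38.7 CPM, with 56.3 to 71.3 CPM in WT and 65.9 to 107 CPM in KO CD8+ cells. Its difference was 1.18 (adjusted p = 0.0348, 4 of 12 fits).

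S100a10, a partner of annexin A2 at the membrane, fell in CD4+ cells from 32.4, 41.4 and 31.1 CPM to 14.2, 19.3 and 15.6 CPM (effect -1.10, adjusted p = 8.9e-05) and had an effect of 0.01 in CD8+ cells, where the groups overlapped. The difference was 1.11 (adjusted p = 0.0369, 6 of 12 fits). Mt1, a metallothionein that binds zinc and copper, fell in CD4+ cells from 11, 16.5 and 5.5 CPM to 2.28, 3.45 and 1.89 CPM and gave 6.7, 6.96 and 9.62 CPM and 8.37, 15.2 and 15.7 CPM in WT and KO CD8+ cells. CD4+ groups of Mt1 did not overlap and CD8+ groups did. Its difference was 2.85 (SE 0.62, adjusted p = 0.0245), kept in 5 of 12 fits.

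Among the 17 genes with a lower effect in CD8+ cells, Zbtb7b (chr3:89377644-89394776) was the 1 called in CD8+ cells only. ThPOK, its product, commits thymocytes to the CD4+ lineage and holds down the CD8+ programme. WT CD8+ libraries gave 6.7, 15.5 and 3.11 CPM and KO CD8+ libraries 1.67, 1.04 and 1.18 CPM, or 11 to 29 counts in WT and 2 or 3 counts in KO. CD4+ libraries gave 39.6, 33 and 24.2 CPM in WT and 34.8, 44.1 and 44.4 CPM in KO cells. The CD8+ groups did not overlap, and the CD4+ groups did. The effect of Raptor loss was -2.54 in CD8+ cells (SE 0.53, adjusted p = 0.00104), and 0.39 in CD4+ cells (adjusted p = 0.25). The subset difference was -2.93 (95% interval -4.11 to -1.75, adjusted p = 0.00913). Its call was lost without WT CD8+ library 2, KO CD8+ library 2 or KO CD8+ library 3, as well as with limma-voom and with the 4 groups fitted alone, and the value over the 12 fits ran from -3.42 to -2.25. Cd4, which marks CD4+ cells in a CD8+ preparation, was 0.394, 1.07 and 0.849 CPM in WT and 5.02, 0.523 and 2.74 CPM in KO CD8+ libraries, from 1 to 7 counts per library. The resting CD8+ libraries held Zbtb7b at 0.61 to 1.64 CPM in WT and 0.61 to 1.35 CPM in KO cells.

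Ahcyl2 had the smallest adjusted p of all genes. Ahcyl2 (chr6:29768011-29912310) encodes a homologue of adenosylhomocysteinase, and Itpr2 (chr6:146108299-146502223) encodes an inositol trisphosphate receptor that releases calcium from the endoplasmic reticulum. Ahcyl2 was 49.3, 50.8 and 57.8 CPM in WT and 191, 183 and 180.0 CPM in KO CD4+ libraries, and 53.6, 66.4 and 57.1 CPM in WT and 76.2, 77.4 and 67.4 CPM in KO CD8+ libraries. The KO CD4+ libraries lay apart from the other 9, and the CD8+ groups did not overlap either but lay close. The effect was 1.80 (SE 0.13) in CD4+ (adjusted p = 9.28e-13) and 0.32 (SE 0.14) in CD8+ cells (adjusted p = 0.123), a difference of -1.48 (95% interval -1.86 to -1.10, adjusted p = 1.15e-05).

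Itpr2 was 28.5, 24.1 and 19.3 CPM in WT and 54.7, 51.7 and 43.9 CPM in KO CD4+ libraries, which did not overlap, and 28.8, 32.1 and 28.6 CPM in WT and 26.8, 15.2 and 29 CPM in KO CD8+ libraries, which did. It rose in CD4+ cells by 1.09 (adjusted p = 5.31e-05) and had -0.33 (adjusted p = 0.299) in CD8+ cells, a difference of -1.42 (SE 0.27, adjusted p = 0.00722). Tmem64, a membrane protein of the endoplasmic reticulum, rose in CD4+ cells from 24.6, 37.9 and 27.5 CPM to 81.5, 91.7 and 77 CPM (effect 1.46, adjusted p = 2.06e-07) and overlapped in CD8+ cells at 16.7 to 18.2 CPM in WT and 14.9 to 23.5 CPM in KO libraries. Its difference was -1.32 (adjusted p = 0.0245, 6 of 12 fits).

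Trim30a, Epsti1 and Ifi27, which interferon is known to induce, are given together. They were grouped after their values were seen, from genes with a lower effect in CD8+ cells, so their shared sign was set by that choice. Tnfsf10 and Slfn2, described above and also known to be induced by interferon, had the opposite sign, with subset differences of 2.55 and 1.28. Called genes that interferon induces thus did not share 1 direction. Trim30a (chr7:104409025-104465193), a ubiquitin ligase gene of the TRIM family, rose in CD4+ cells from 9.73, 11.1 and 11 CPM in WT to 20.5, 26.2 and 20.8 CPM in KO libraries. In CD8+ cells it fell from 34.3, 43.4 and 31.4 CPM in WT to 22.6, 24.1 and 20.8 CPM in KO libraries. WT CD8+ libraries were the highest 3 and WT CD4+ libraries the lowest 3, while the 6 KO libraries of both subsets shared one range. The effect was 1.05 in CD4+ (adjusted p = 0.000633) and -0.68 in CD8+ cells (adjusted p = 0.0114), a difference of -1.73 (95% interval -2.31 to -1.15, adjusted p = 0.00197). CD8+ minus CD4+ was 1.73 in WT (adjusted p = 3.16e-08) and 0.00 in KO cells (SE 0.20).

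The 250 bases before the start of Trim30a are shown because they hold the letters of an interferon response element, GAAA, any 2 bases and GAAA again, the 1 window of the 25 that did. This motif, searched on both strands, was in 0 of 11 windows of genes with a higher and 1 of 14 with a lower effect in CD8+ cells, and in 3.46% of all 27025 genes with a window. The match lies on the reverse strand and is in capitals in the RefSeq window chr7:104465194-104465443 (GRCm38.p6, minus strand):
Trim30a: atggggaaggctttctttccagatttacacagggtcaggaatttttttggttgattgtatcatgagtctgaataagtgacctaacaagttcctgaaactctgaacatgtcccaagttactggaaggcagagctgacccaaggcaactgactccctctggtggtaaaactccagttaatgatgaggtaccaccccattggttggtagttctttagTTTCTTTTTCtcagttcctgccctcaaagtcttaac

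Epsti1 (chr14:77904239-78002657), a gene of little known function, showed the same arrangement as Trim30a at a lower level. It gave 1.95, 2.67 and 3.58 CPM in WT and 5.7, 9.65 and 7.56 CPM in KO CD4+ libraries, and 15.4, 16.1 and 14.1 CPM in WT and 4.18, 6.27 and 5.49 CPM in KO CD8+ libraries. Neither pair overlapped, and the KO libraries of the 2 subsets did overlap each other. The effect was 1.34 in CD4+ (adjusted p = 0.0225) and -1.45 in CD8+ cells (adjusted p = 0.00211), a difference of -2.79 (SE 0.54, adjusted p = 0.00722). Ifi27 was 0.649, 3.56 and 1.38 CPM in WT and 12, 18.6 and 9.45 CPM in KO CD4+ libraries, and 7.49, 15.5 and 6.22 CPM and 12.6, 14.6 and 8.62 CPM in WT and KO CD8+ libraries, which overlapped. The difference of -2.39 (adjusted p = 0.0415) was kept in 3 of 12 fits.

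The interferon response list as a whole had 28 of 39 members tested, and neither Trim30a, Epsti1 nor Ifi27 belongs to it. None of the 28 had a called subset difference, and 4 had an unadjusted p under 0.05 with a lower effect in CD8+ cells (Stat2, Xaf1, Oas2 and Ly6a), against 4.88% of all genes. Its median subset difference was -0.37, beside 0.03 over all genes tested. Raptor loss raised 9 of the 28 in CD4+ cells and lowered 0, beside 8.82% and 8.56% of all genes. In CD8+ cells it raised 2 and lowered 2, beside 6.3% and 5.42% of all genes.

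Pglyrp2 (chr17:32412459-32424167), an amidase that cleaves bacterial peptidoglycan, had the most negative value, -3.00 (95% interval -4.09 to -1.92, adjusted p = 0.00486). It stood at 3.89, 2.67 and 1.65 CPM in WT and 12.5, 12.4 and 7.08 CPM in KO CD4+ libraries, and at 6.7, 4.82 and 4.24 CPM in WT and 2.51, 3.14 and 2.35 CPM in KO CD8+ libraries. Groups overlapped in neither subset. The rise in CD4+ cells passed the test (2.05, adjusted p = 7.48e-05), and the CD8+ value did not (-0.95, adjusted p = 0.117). F2r, the thrombin receptor PAR1, rose in CD4+ cells from 9.73, 15.2 and 9.63 CPM to 31.3, 39.3 and 19.4 CPM and stood at 12.6, 10.7 and 18.9 CPM and 7.53, 9.41 and 9.02 CPM in WT and KO CD8+ cells, without overlap in either subset. The difference for F2r was -2.08 (adjusted p = 0.0167, 5 of 12 fits).

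Ms4a4b and Ms4a6b lie near each other on chromosome 19 and belong to the MS4A family of membrane proteins, whose similar members make the division of reads between them uncertain. Ms4a4b rose in CD4+ cells from 8.43, 3.56 and 7.16 CPM to 26.2, 39.98 and 55.3 CPM (effect 2.68, adjusted p = 1.1e-06) and in CD8+ cells from 87.5, 88.9 and 73.8 CPM to 136, 141 and 179 CPM (effect 0.87, adjusted p = 0.0141). Neither pair overlapped, and every CD8+ library lay above every CD4+ library. Its difference was -1.81 (adjusted p = 0.0333), kept in 4 of 12 fits. Ms4a6b rose in CD4+ cells from 46.1, 41.9 and 27.2 CPM to 102, 107 and 80.8 CPM and overlapped in CD8+ cells, a difference of -1.09 (adjusted p = 0.0245, 6 of 12 fits).

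Fnip1 was the 1 gene of 29 tested on the list of mTORC1 subunits and upstream regulators with a called subset difference, beside 0.334% of all genes. Its product binds folliculin and AMPK and acts in the nutrient branch of mTORC1 control. It rose in CD4+ cells from 27.2, 27.2 and 33 CPM to 133, 116 and 128 CPM (effect 2.09, adjusted p = 4.62e-09) and in CD8+ cells from 51.2, 56.7 and 26 CPM to 80.4, 92 and 71.3 CPM (effect 0.89, adjusted p = 0.00219). Neither pair overlapped. The difference of -1.20 was near the threshold (adjusted p = 0.0482), and the call was kept in 1 of 12 fits and lost with DESeq2 and with limma-voom.

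The last 4 of the 17 rose in CD4+ cells. Ech1, an enzyme of fatty acid oxidation, rose there from 10.4, 14.3 and 9.36 CPM to 17.7, 26.2 and 20.8 CPM with 13.8, 17.7 and 14.4 CPM and 10.04, 13.1 and 8.23 CPM in WT and KO CD8+ cells, a difference of -1.47 (adjusted p = 0.0415, 3 of 12 fits). Rassf2, a Ras association domain protein, rose from 26.6, 27.6 and 22.6 CPM to 38.2, 51 and 38.3 CPM in CD4+ cells with a difference of -1.12 (adjusted p = 0.0348, 7 of 12 fits). Anxa6, a membrane-binding annexin, rose from 65.5, 75.3 and 72.1 CPM to 148, 143 and 151 CPM in CD4+ cells, against 116 to 124 and 134 to 141 CPM in WT and KO CD8+ cells, a difference of -0.87 (adjusted p = 0.0372, 1 of 12 fits). Ypel3, a growth-suppressing gene at low level, gave 0.649, 3.12 and 1.1 CPM and 6.84, 4.14 and 2.83 CPM in WT and KO CD4+ cells and 3.15, 10.7 and 5.09 CPM and 2.51, 2.09 and 1.96 CPM in WT and KO CD8+ cells. The CD4+ groups of Ypel3 overlapped and its CD8+ groups did not, and its difference was -2.89 (adjusted p = 0.0415, 4 of 12 fits).

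**Figure D2:**
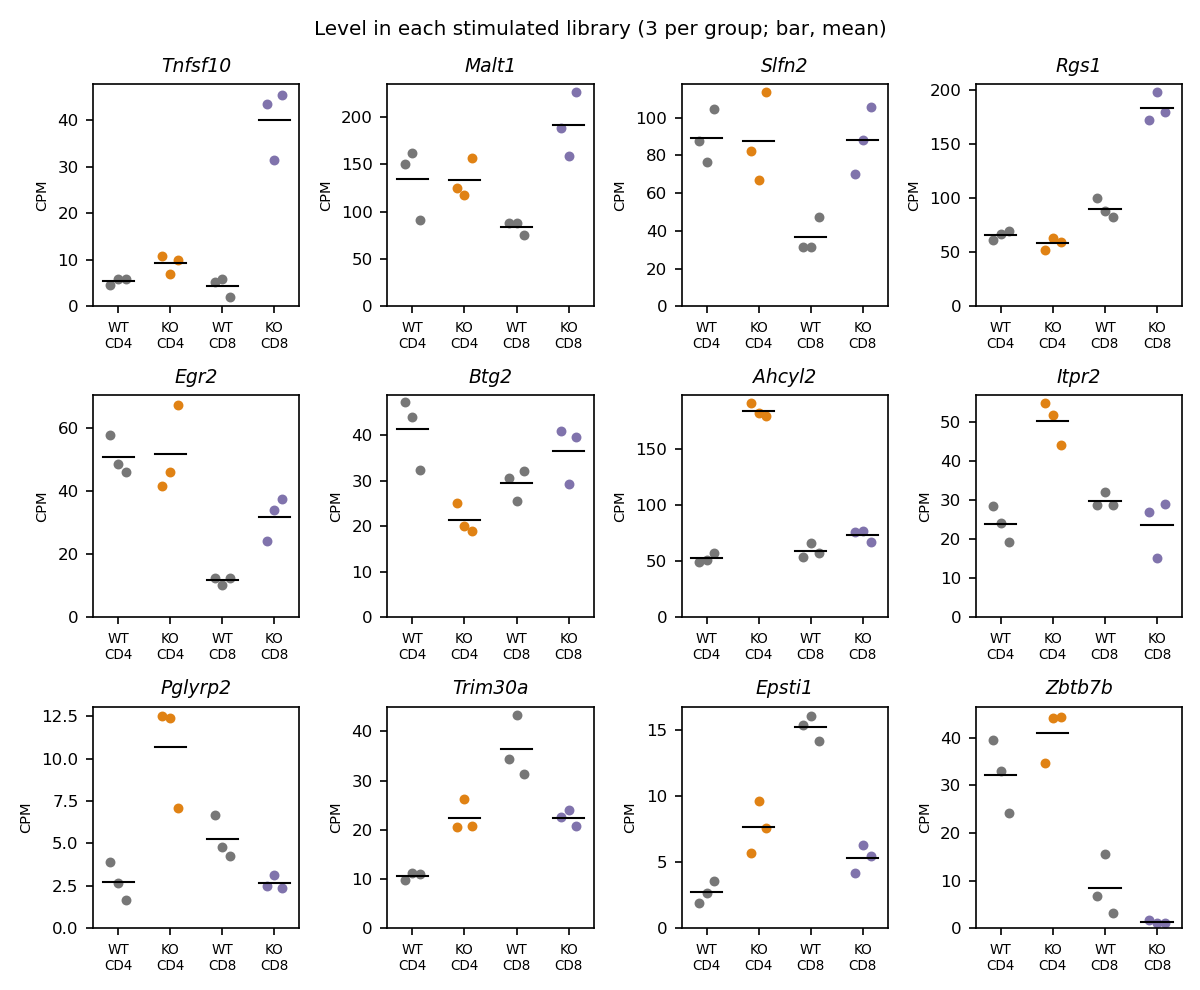
Level in CPM (y axis, linear from 0) of 12 of the 35 genes in each stimulated library, 3 points per group, with the group mean as a bar; WT groups are grey, KO CD4+ orange and KO CD8+ purple. In the first 6 panels the KO-to-WT step is more upward in CD8+ than in CD4+ cells, for example for Tnfsf10, and in the last 6 it is more upward in CD4+ cells, for example for Ahcyl2.

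The same values can be read as the difference between CD8+ and CD4+ cells in each genotype. For 26 of the 35 genes that difference had opposite signs in WT and KO cells, for 4 it had the same sign and was smaller in KO cells, and for 5 it had the same sign and was larger in KO cells. Ahcyl2 differed between subsets by 0.15 in WT (adjusted p = 0.694) and by -1.33 in KO cells (adjusted p = 8.6e-10). Rxra differed by -1.81 in WT (adjusted p = 5.92e-08) and by -0.31 in KO cells (adjusted p = 0.517). Zbtb7b differed by -2.05 in WT and -4.98 in KO cells, lower in CD8+ cells in both genotypes. These values come from the same libraries as the subset difference and are no separate evidence for it.

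Resting libraries gave no such calls. There the subset difference of the Raptor effect, from 12 other libraries, passed for 0 of 10493 genes by edgeR, with 425 (4.05%) at an unadjusted p under 0.05, and for 0 by DESeq2 (299 unadjusted) and 0 by limma-voom (376 unadjusted). Across all genes the stimulated and resting values had a Pearson r of 0.0231 and a Spearman rho of -0.00721. Inhba and Mt1 had a resting group with no counts and are left out of what follows. For the other 33 genes the median size of the resting value was 0.192, against 1.42 for the 35 in stimulated cells, and the resting value had the sign of the stimulated one in 15. The genes were chosen by their stimulated value, so the contrast of these sizes was partly set in advance and does not test them. None of the 33 reached an unadjusted p under 0.05 at rest, and the median SE was 0.317 at rest and 0.281 in stimulated cells.

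Individual resting values were small for most genes that led the stimulated comparison. Ahcyl2 had 0.00 (SE 0.21), Trim30a -0.23 (SE 0.26), Itpr2 0.16 (SE 0.23) and Tnfsf10 0.32 (SE 0.42). Zbtb7b had -0.51 with an SE of 1.05, too wide to place it. Stimulated minus resting, tested directly as a 3-way term, passed for 0 genes by edgeR (726 at an unadjusted p under 0.05), 0 by DESeq2 (525) and 0 by limma-voom (652). With a block for the library code in the labels, it passed for 10 genes by edgeR. In the edgeR fit without that block Ahcyl2 came nearest, at -1.48 with an adjusted p of 0.0529. The 3-way value had the sign of the stimulated one in all 33 genes and an unadjusted p under 0.05 in 28, beside 6.92% of all genes tested. Since the 33 were chosen by the stimulated part of that term, this share describes them and does not test them.

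**Figure D3:**
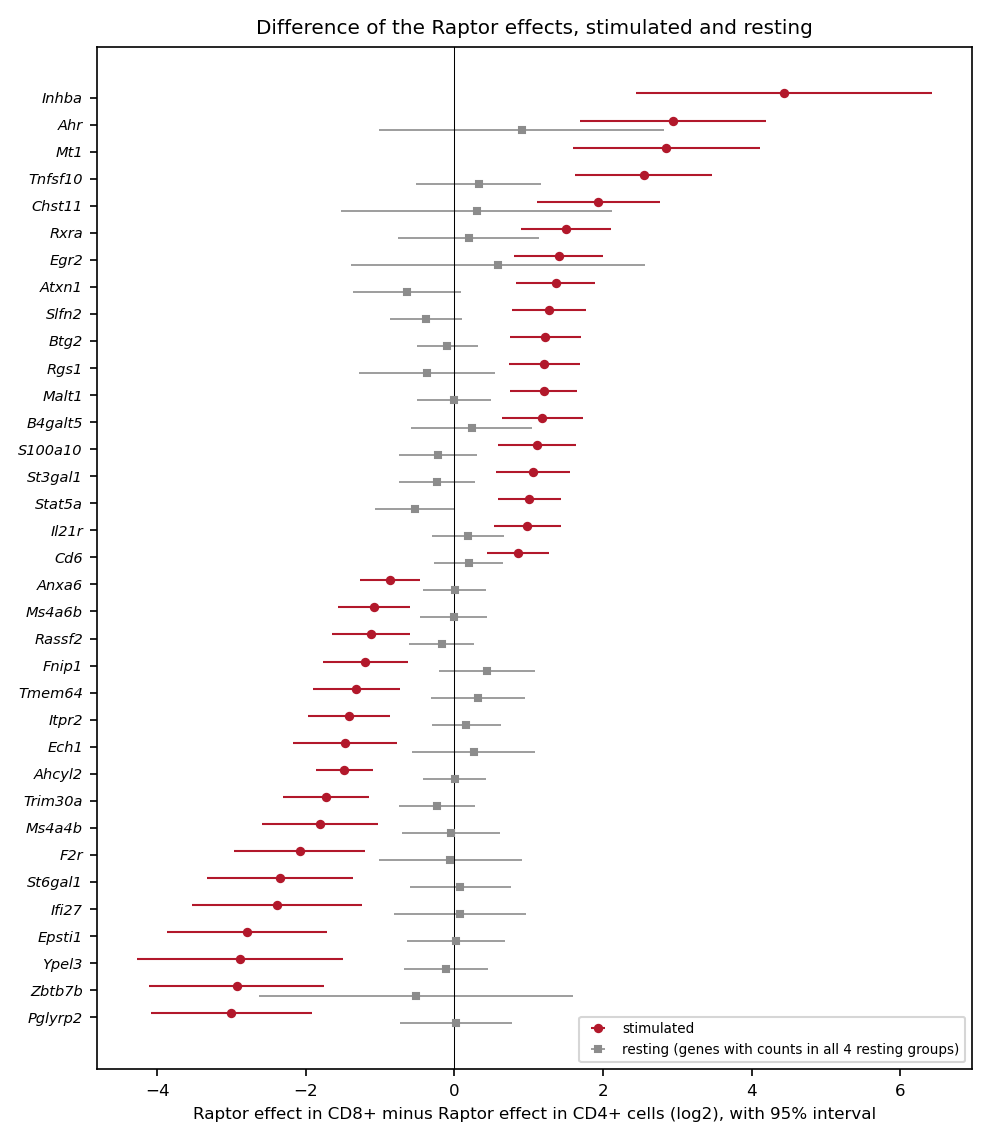
Raptor effect in CD8+ minus Raptor effect in CD4+ cells (x axis, log2, with 95% interval) for the 35 genes, in stimulated (red circles) and resting cells (grey squares, 33 genes). The stimulated intervals lie off 0, since the genes were chosen by the stimulated value, and the resting intervals include 0.

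Rictor KO cells, which lack the defining subunit of mTORC2, were measured as stimulated CD8+ cells, so a subset difference could not be formed for them. Their comparison shares the 3 WT CD8+ libraries with the CD8+ Raptor effect. None of the 35 genes was called for Rictor loss (0.162% of genes tested were), and 10 had an unadjusted p under 0.05, beside 6.03% of genes tested. The 35 were chosen with the same WT CD8+ libraries, so these counts describe them and do not test them. All 3 Rictor libraries carry the library code of the libraries numbered 3, and its part in the values was not tested. The effect of Rictor loss was 0.92 for Tnfsf10, beside 3.31 for Raptor loss. For Stat5a the pair of values was -0.59 and 0.92, and for Ahcyl2 it was -0.05 and 0.32.

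Many genes of pathways known to depend on mTORC1 fell in both subsets, and no tested member of the amino acid, tRNA synthetase, lipid, glycolysis and hypoxia lists had a called subset difference. In the list of the amino acid response driven by ATF4, 15 of 20 tested members fell in CD8+ and 12 in CD4+ cells, beside 5.42% and 8.56% of all genes, with median effects of -2.68 and -1.88 and a median subset difference of -0.39. Asns, which makes asparagine, went from 54.2 ± 17.8 to 2.41 ± 1.31 CPM (mean ± SD, n = 3) in CD4+ and from 139 ± 22.3 to 4.11 ± 1.31 CPM in CD8+ cells, a subset difference of -0.49 (95% interval -1.80 to 0.83). Of the 20 cytosolic tRNA synthetases, 15 fell in CD8+ and 18 in CD4+ cells, beside the same shares of all genes. Aars, the alanine enzyme, had an effect of -1.82 in CD8+ and -1.82 in CD4+ cells, with a 95% interval of -0.34 to 0.34 for the difference, which leaves room for differences up to the ends of that interval.

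Lipid synthesis followed the same course. Of 24 tested genes of cholesterol synthesis and uptake, 19 fell in each subset, beside 5.42% of all genes in CD8+ and 8.56% in CD4+ cells, with medians of -0.88 in CD8+ and -1.22 in CD4+ cells. Hmgcs1, at the entry of the mevalonate pathway, had a subset difference of 0.35 (95% interval -0.06 to 0.76). Of 16 fatty acid genes, 10 fell in CD8+ and 14 in CD4+ cells, beside the same shares. Scd2, a desaturase, fell from 863 ± 90.2 to 117 ± 15.9 CPM (n = 3) in CD4+ and from 824 ± 63.6 to 148 ± 54.8 CPM in CD8+ cells. Fasn, the fatty acid synthase, fell in CD4+ cells (-1.19, adjusted p = 0.000329) and had -0.40 (adjusted p = 0.248) in CD8+ cells, but the difference of 0.80 did not pass (adjusted p = 0.363).

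Glycolysis fell in 15 of 21 tested members in CD8+ and 13 in CD4+ cells, where Eno3 rose, beside 5.42% and 8.56% of all genes. Its median was -1.16 in CD8+ and -0.81 in CD4+ cells, and 18 of 21 members had a subset difference below 0, with a median of -0.34 beside 0.03 over all genes. None was called, and 5 lower (Aldoa, Eno3, Pdk1, Pfkm and Slc2a1) and 1 higher (Hk2) had an unadjusted p under 0.05, beside 4.88% and 4.47% of all genes. Ldha, which makes lactate, had -0.03 (95% interval -0.43 to 0.36), and Aldoa, aldolase A, had -0.47 (adjusted p = 0.399). Of 16 hypoxia response genes, 11 fell in CD8+ and 7 in CD4+ cells, beside the same shares, and Kdm3a, a histone demethylase, rose in CD4+ cells. The list's median subset difference was -0.52.

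Of 26 effector and memory transcription factors Egr2 was the 1 called, beside 0.334% of all genes. At an unadjusted p under 0.05, 8 had a higher and 1 (Tox) a lower effect in CD8+ cells, beside 4.47% and 4.88% of all genes. The median subset difference of the list was 0.65. Id2, which blocks E proteins, gave 10.7 ± 4.69 and 30.5 ± 5.02 CPM (n = 3) in WT and KO CD8+ cells and 21.5 ± 9.96 and 21.3 ± 5.55 CPM in WT and KO CD4+ cells, a difference of 1.54 that missed the threshold (adjusted p = 0.073). Eomes, a CD8+ effector factor, had 0.91 (95% interval -0.60 to 2.42) and Tbx21 (T-bet) 0.36 (95% interval -0.24 to 0.96).

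Cytokine and chemokine genes varied widely between libraries. Of 14 cytokine genes tested 0 were called, and Csf2, Il13, Il2 and Il4 had an unadjusted p under 0.05 with a higher effect in CD8+ cells, beside 4.47% of all genes. Il2 was 129.7, 65.1 and 256 CPM in WT and 17.1, 16.5 and 60.9 CPM in KO CD4+ libraries, and 5.91, 3.21 and 46.7 CPM and 5.02, 13.1 and 38 CPM in WT and KO CD8+ libraries, with overlap in CD8+ cells alone. The difference for Il2 was 2.22 (95% interval 0.06 to 4.38, adjusted p = 0.518). Of 5 chemokine genes Ccl3 and Ccl4 had unadjusted p-values under 0.05 with a higher effect in CD8+ cells, beside the same share. Ccl3 rose in CD8+ cells from 46.9, 15 and 74.1 CPM to 172, 193 and 404 CPM (adjusted p = 0.00671) and gave 3.24, 2.67 and 23.4 CPM and 16.5, 8.27 and 13.7 CPM in WT and KO CD4+ cells, a difference of 2.31 (adjusted p = 0.437). The summed natural killer markers given above were also highest in the KO CD8+ libraries, and their part in the chemokine values was not tested.

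Cytotoxic and lineage genes gave few differences. None of the 9 cytotoxic granule genes tested was called, and 1 (Srgn) had an unadjusted p under 0.05, beside 9.35% of all genes. Gzmb, granzyme B, was 1358 ± 246 and 1332 ± 340.4 CPM (n = 3) in WT and KO CD8+ cells and 202 ± 7.84 and 105 ± 30.1 CPM in WT and KO CD4+ cells, a difference of 0.92 (95% interval -0.09 to 1.92, adjusted p = 0.605). Of 14 tested genes on the list of CD8+ lineage and identity, Tnfsf10 was the 1 called, beside 0.334% of all genes. Levels of this death ligand overlapped between WT CD8+ and WT CD4+ libraries, and Cd8a, Cd8b1 and Runx3 on that list were not called. Of 14 CD4+ lineage and helper genes Zbtb7b was the 1 called, beside the same share. Runx3 had 0.33 (95% interval -0.21 to 0.87). Of the lists of antigen receptor signalling (23 genes), IL-2 receptor and STAT5 (15), and costimulatory receptors (14), Malt1, Stat5a and Cd6 were the 1 called member of each, all with a higher effect in CD8+ cells. Over all genes, 0.172% were called with a higher effect and 0.162% with a lower effect in CD8+ cells. The list of naive and quiescence genes had 3 of 24, with Slfn2 and Btg2 higher and Ms4a4b lower, beside the same shares.

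**Figure D4:**
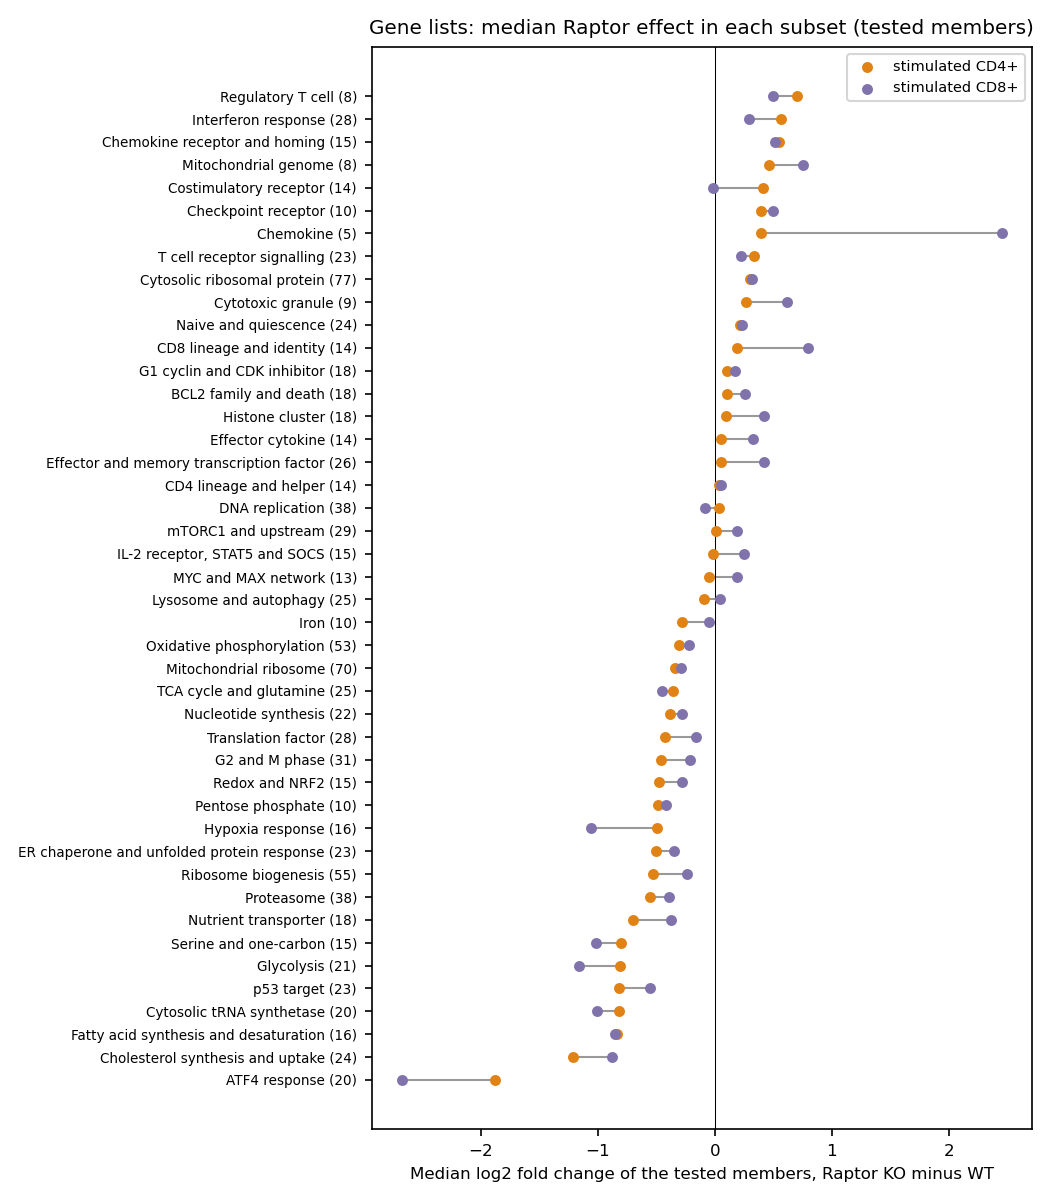
Median log2 fold change of Raptor KO over WT of the tested members of each gene list (number in brackets, lists with at least 5) in stimulated CD4+ cells (orange) and CD8+ cells (purple), joined by a line; x axis in log2 units. The ATF4, cholesterol, tRNA synthetase and glycolysis lists lie below 0 in both subsets, and the chemokine list, with 5 tested members, has the widest gap.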

How the data were processed

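The authors deposited 1 table of unnormalized read counts, with 27 libraries in columns. Total RNA was fragmented and ligated to a 3′ adaptor, per the labels' protocols. The submitters' processing notes name the aligner STAR 2.6.0a and the build GRCm38. Which program, annotation and strand setting the counting used is not given in the sources used, so values of overlapping or antisense genes and of genes with near-identical relatives (Ms4a4b, Ms4a6b, Trim30a, Mt1, Slfn2, Ifi27) are uncertain. Of 26802 genes, 26765 matched GENCODE M21, which gave the coordinates. Whole-gene spans are printed.

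The row of Rn45s was left out. Testing used edgeR 4.0.16 in R 4.3.3 over all 27 libraries with 1 mean per group, a low-count filter (minimum count 10, minimum total 15), TMM scaling, robust quasi-likelihood F tests and Benjamini-Hochberg adjustment at 0.05 over 10493 genes. CPM are counts over the TMM-scaled total of tested genes. Fold changes are edgeR's fitted log2 values, and SE is the log2 value over the square root of F. Named genes were Rptor, Rictor, Cd4, Cd8a, Cd8b1, the 15 largest and 15 smallest called subset differences with at least 10 CPM in a stimulated group, the first 4 genes of each of 49 lists, and called list members. The rule also allowed genes of smallest p for the resting and 3-way terms, where 0 genes passed, and these were not added. Il21r, Ypel3 and Anxa6 (the other called genes), markers, and members listed at an unadjusted p were named, and called genes were grouped by role, after their values were seen. Lists and members were chosen with earlier results of these data known, and lists are described by counts and medians, with no test. Alternatives used DESeq2 1.42.0, limma 3.58.1, other scaling and filters, the compared groups alone, a block for library code, a minimum fold of 1.5, and libraries left out. Removing both KO libraries numbered 1 was added after the data were seen. Some results are not reported here.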

Additional observations from a re-analysis of the deposited data

Results flagged for a closer look

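All 35 genes called in the subset difference are listed because the Raptor effect in stimulated CD8+ cells and that in stimulated CD4+ cells differed by the test of the difference itself. Values are log2, CD8+ minus CD4+. The largest were Inhba 4.44, Ahr 2.94, Mt1 2.85, Tnfsf10 2.55, Chst11 1.94 and Rxra 1.499. Next came Egr2 1.40, Atxn1 1.36, Slfn2 1.28, Btg2 1.22, Rgs1 1.21 and Malt1 1.20. The smallest of the 18 above 0 were B4galt5 1.18, S100a10 1.11, St3gal1 1.05, Stat5a 1.01, Il21r 0.98 and Cd6 0.86. The most negative were Pglyrp2 -3.00, Zbtb7b -2.93, Ypel3 -2.89, Epsti1 -2.79, Ifi27 -2.39 and St6gal1 -2.35. They were followed by F2r -2.08, Ms4a4b -1.81, Trim30a -1.73, Ahcyl2 -1.48, Ech1 -1.47 and Itpr2 -1.42. The 5 nearest to 0 of the 17 were Tmem64 -1.32, Fnip1 -1.20, Rassf2 -1.12, Ms4a6b -1.09 and Anxa6 -0.87. The 4 groups of 3 libraries are too small for a test of single outlying libraries.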

How the results depend on the processing

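The count of 35 called subset differences was 35 under median-ratio scaling and with genes over 5 CPM in 3 libraries (10651 genes tested), 34 with DESeq2 (30 shared) and 40 with limma-voom (26 shared, 27 higher and 13 lower). It was 75 with no low-count filter, 18 with the compared groups alone, and 3 at a minimum fold of 1.5 (Ahcyl2, Pglyrp2 and Tnfsf10). Scaling to totals that include Rn45s, which also dropped the TMM factors, gave 2. The count was 17 to 45 with 1 library left out, and 16 without both KO libraries numbered 1. The cause was not tested, except that the fits with fewer libraries have fewer samples. The CD8+ effect (1230) gave 459 under Rn45s scaling (55 higher, 404 lower, median -0.486), 237 at the minimum fold and 753 to 1100 with 1 library left out. The CD4+ effect (1823) gave 684 (67 higher, 617 lower, median -0.46), 242, 1138 to 1714, and 1171 without both KO libraries numbered 1. The resting subset difference (0) gave 1 with no filter, 1 with the compared groups alone and 0 in every fit with 1 library left out. The 3-way term (0) gave 5 with no filter and 0 to 4 with 1 library left out. No called gene changed sign in 770 alternative values, and 289 fell short of the threshold.

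The labels give each library a code that same-numbered WT and Raptor KO libraries share and do not say what it marks. A replicate block for this code gave 75 calls for the subset difference (34 of the 35 among them) and 10 for the 3-way term. Over 18 pairs of same-numbered stimulated libraries, deviations from the group means correlated at 0.0125 to 0.367, over 0.1 in 10 pairs, and 13 correlated best with their own number, a hint from the data. The pairs numbered 3 correlated at 0.242 to 0.367. At 1 count per 0.275 to 0.837 CPM, differences of genes at a few CPM could be detected only when large.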

Other observations

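Genes of ribosome assembly, protein folding and mitosis were not described above. Of 55 tested ribosome biogenesis factors, 33 fell in CD4+ and 7 in CD8+ cells, beside 8.56% and 5.42% of all genes, and 52 had a subset difference above 0, with a median of 0.36 beside 0.03 over all genes tested. None had a called subset difference, and 9 had an unadjusted p under 0.05, all higher in CD8+ cells (4.47% of all genes), so the difference between the 2 counts was not shown for any single gene. Ncl, nucleolin, went from 1221 ± 288 to 690.1 ± 98.1 CPM (n = 3) in CD4+ and from 1114 ± 286 to 897 ± 99.6 CPM in CD8+ cells, a difference of 0.51 (adjusted p = 0.5).

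Of 23 endoplasmic reticulum chaperone and unfolded protein response genes, 13 fell in CD4+ and 6 in CD8+ cells, beside 8.56% and 5.42% of all genes, with a median subset difference of 0.27 and 0 called. Hsp90b1, the chaperone GRP94, had -1.10 in CD4+ and -0.44 in CD8+ cells, a difference of 0.67 (adjusted p = 0.245). Of 31 G2 and M phase genes, 12 fell in CD4+ and 2 in CD8+ cells, and of 28 translation factors, 15 and 3 did, beside the same shares, with median subset differences of 0.27 and 0.23 and 0 called in either list. Cytosolic ribosomal protein genes were measured too, with 17 of 77 raised in CD4+ and 12 in CD8+ cells, beside 8.82% and 6.3% of all genes, and a median subset difference of 0.01. The Raptor effects of these lists share the libraries and scaling of the comparison above. The protein-coding share was 38.9% to 63.6% in WT and 31.8% to 47.8% in KO stimulated libraries, ranges that overlapped. Its part in these effects was not tested.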
